A study of Mus musculus with 79 samples.

Results

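Ion channel subunits were examined in mouse muscle that lacked either of a pair of circadian clock regulators, RORA or PER2. A gene was a member when its symbol had the form of a potassium channel (Kcn), sodium channel (Scn), voltage-gated calcium channel (Cacna, Cacnb or Cacng) or chloride channel and transporter (Clcn) subunit. The calcium pore gene Cacna1s has this form but was left out by the rule. No count of members or of names of this form includes it. The RORA tables held 75 members of 14253 genes and those of PER2 held 61 of 12952, and all 61 were also among the 75. GENCODE M21, a mouse gene annotation, holds 146 names of this form, 141 of them protein-coding, so many family members were not in the tables and were not analysed here. Of the 14 members taken by the rule in the RORA tables alone, Clcn4 (784 mean normalized counts) is in the PER2 tables under an older name. The others had mean normalized counts from 3.41 to 51.1. The member Kcnq1ot1 is a non-coding transcript that lies over Kcnq1 and was counted apart from the channel roles.

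The study compared muscle-specific knockout mice (MKO) with control mice (CTRL, labelled WT) at 6 points of the light-dark day, given as zeitgeber time (ZT) in hours and called ZT0, ZT4, ZT8, ZT12, ZT16 and ZT20 here. The groups used here are RORA MKO (18 libraries), RORA CTRL (18), PER2 MKO (24) and PER2 CTRL (19), which makes 79 libraries in 24 groups of 3 or 4 mice. The promoter that drives the deletion, the age and sex of the mice and the muscle taken were not stated in what was used here. All values are from the authors' deposited comparison tables, 6 for each knockout, which hold no value per library. Depth per library is therefore unknown, and the deposited errors and p-values carry the spread between these mice. In the RORA tables a positive log2 fold change means more RNA in MKO than in CTRL. The sources used here do not say which genotype is the numerator in the PER2 tables, so their values are called positive or negative as deposited. Rora itself had a mean log2 fold change over the 6 ZT of −1.78 ± 0.15 in the RORA tables, and Per2 had a deposited mean of 0.37 ± 0.29 in the PER2 tables. Muscle fibre markers were abundant, with 12 of 12 between 16154 and 792710 mean normalized counts, while 1 of 8 neuron markers was measured. In bulk RNA, fewer cells of a type and less RNA per cell cannot be told apart.

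Skeletal muscle fibres are excitable cells. Voltage-gated sodium channels carry the action potential along the fibre and into the transverse tubules, where a voltage-gated calcium channel complex senses the voltage and triggers calcium release. Chloride and inward-rectifier potassium channels hold the membrane near rest, and voltage-gated and calcium-activated potassium channels bring it back after a spike. Pore subunits form the ion path, and auxiliary subunits alter where the pore sits and how it opens. RORA is a nuclear receptor that activates genes of the clock at a DNA element with the core AGGTCA, and PER2 represses the CLOCK and BMAL1 factors, which bind the E-box CACGTG.

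In RORA-deficient muscle 35 of 75 channel members differed from control in the mean over the 6 ZT, 21 higher and 14 lower. That is 46.7% of the members, where 38.2% of all genes passed the same threshold. The excess lay in the higher direction (28.0% of members against 18.9% of all genes), and the share of lower members (18.7%) was close to that of all genes (19.3%). The changes of the members were larger than usual for these tables. The median size of the mean log2 fold change was 0.36 for members that passed and 0.14 for all genes that passed. With those that did not pass included, it was 0.10 for the members and 0.06 for all genes. A mean size of at least 1 was reached by 8 members (10.7%) against 1.26% of all genes. The members were not particularly abundant: 20 of 75 had a mean normalized count under 10, and their median was 42.5 against 111 over all genes. Here and below a mean is the plain mean of the 6 log2 fold changes with its SD over the 6 ZT, and a gene passed when the inverse-variance weighted mean had a Benjamini-Hochberg adjusted p, over all genes, under 0.05.

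The changes were present through the day. By the authors' own adjusted p under 0.05, ZT0 had 28 members called (28.1% of all genes were), ZT4 34 (29.0%), ZT8 34 (27.8%), ZT12 25 (22.1%), ZT16 27 (20.7%) and ZT20 34 (32.2%). As shares of the members these are 37.3%, 45.3%, 45.3%, 33.3%, 36.0% and 45.3%, each above its background. At all 6 ZT, 19 members (25.3%) were called, against 8.65% of all genes. Of these, 13 were higher in MKO (17.3% against 3.95%) and 6 were lower (8.00% against 4.69%). Among the 13 were Cacna1i, Kcnh2, Kcna10, Kcnn3, Kcng4, Scn3b, Cacna2d4, Kcnq1, Kcnn2, Kcnq5 and Kcnc1, and the 6 were Cacng7, Clcn3, Cacna2d1, Clcn4, Cacng6 and Scn4a. At the other end, 28 members (37.3%) were called at no ZT, against 41.9% of all genes.

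**Figure D1:**
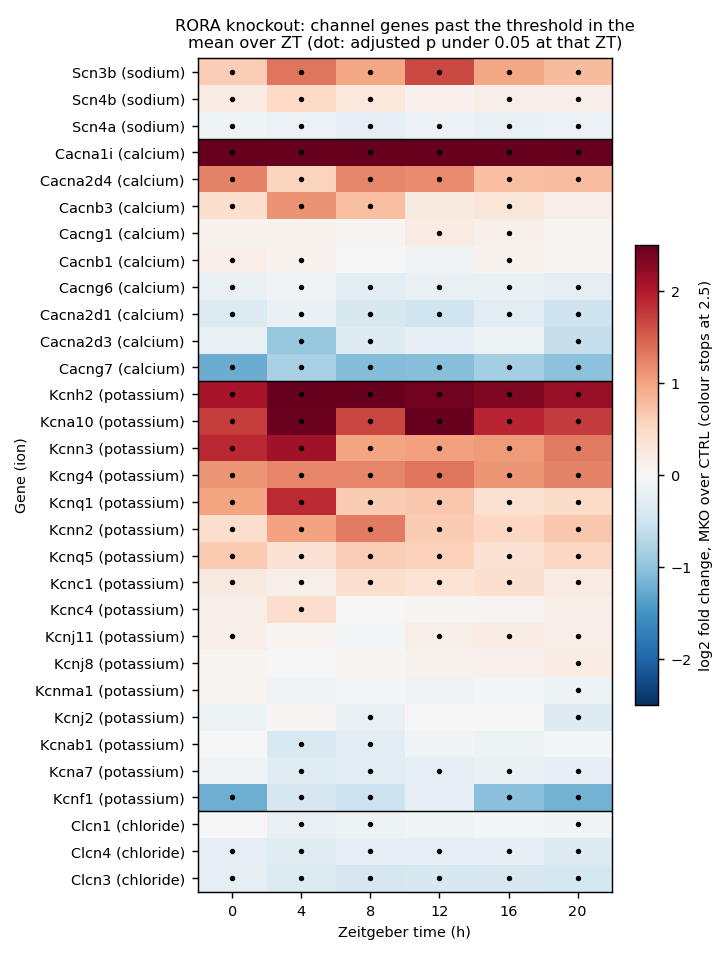
Deposited log2 fold change, MKO over CTRL, of 31 of the 35 channel members that passed in the mean over ZT in the RORA set, by gene (rows, grouped by ion) and zeitgeber time in hours (columns). Colour gives the log2 fold change and stops at 2.5, so Cacna1i is at the end of the scale at all 6 ZT, and a dot marks an authors' adjusted p under 0.05.

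The promoters of members that moved differently were read for the letters that these clock factors bind. The 250 bases before the RefSeq transcript start (GRCm38.p6) were available as 83 windows for 55 of the 75 members. The RORA core AGGTCA, searched on both strands, was in 3.61% of the member windows and in 14.0% of all 32851 windows of that length. The 7-letter form TAGGTCA, which contains the core, was in 0 member windows and in 2.23% of all windows. Kcna10, Kcnf1 and Clcn7 were the members that held the core. The E-box CACGTG was in 7 windows of 6 members (Clcn4, Clcn6, Clcn7, Kcnab1, Kcne4 and Kcnj2), which is 8.43% of member windows against 6.02% of all. Kcna10 and Kcnf1 are printed because they hold the core and moved in opposite directions, Cacna1i because its change was the largest of the members and no core was found, and Clcn4 for its E-box. Clcn4 has another RefSeq start whose window held no CACGTG and is not printed. Each is given 5′ to 3′ on the gene's strand and ends at the base before the start. Capitals mark AGGTCA, or its reverse complement TGACCT, in Kcna10 and Kcnf1, and CACGTG in Clcn4.
Kcna10, chr3:107182893-107183142, plus strand: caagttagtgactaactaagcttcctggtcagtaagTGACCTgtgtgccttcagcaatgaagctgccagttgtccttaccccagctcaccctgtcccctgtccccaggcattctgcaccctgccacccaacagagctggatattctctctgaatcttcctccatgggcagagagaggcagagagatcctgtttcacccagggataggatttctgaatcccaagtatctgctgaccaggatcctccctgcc
Kcnf1, chr12:17176889-17177138, minus strand: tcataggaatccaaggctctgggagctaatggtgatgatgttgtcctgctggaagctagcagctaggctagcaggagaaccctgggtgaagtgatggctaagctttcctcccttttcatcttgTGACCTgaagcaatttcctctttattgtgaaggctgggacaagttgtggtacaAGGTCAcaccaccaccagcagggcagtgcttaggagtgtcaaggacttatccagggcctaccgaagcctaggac
Cacna1i, chr15:80286988-80287237, plus strand: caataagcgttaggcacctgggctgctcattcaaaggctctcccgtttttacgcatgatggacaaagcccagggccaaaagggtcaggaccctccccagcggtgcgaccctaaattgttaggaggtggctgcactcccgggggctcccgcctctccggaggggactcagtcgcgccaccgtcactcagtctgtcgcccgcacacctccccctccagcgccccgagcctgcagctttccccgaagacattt
Clcn4, chr7:7299558-7299807, minus strand: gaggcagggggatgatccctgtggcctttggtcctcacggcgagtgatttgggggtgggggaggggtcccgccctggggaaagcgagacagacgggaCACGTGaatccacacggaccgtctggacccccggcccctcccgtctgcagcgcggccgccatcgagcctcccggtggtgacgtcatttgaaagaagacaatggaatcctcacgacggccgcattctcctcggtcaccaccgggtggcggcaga
In Kcna10 the match begins 214 bases before the start and is on the opposite strand. Kcnf1 holds 2 matches, one on each strand. These are letter matches in a short window, not sites where binding was measured.

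The pore subunits of voltage-gated potassium channels were the largest group and had the most calls in the RORA set: 9 of 19 rose, 3 fell and 7 did not pass. Their median was 0.04, beside 0.00 over all genes, of which 18.9% rose and 19.3% fell. Some smaller groups had a larger share that passed. In the calcium channel gamma family 1 of 3 rose and 2 fell, and of the sodium channel beta subunits 3 of 4 rose. Kcnh2, the pore of the rapid delayed-rectifier current known from the heart, had log2 fold changes in the authors' deposited tables of 2.06, 2.51, 2.73, 2.41, 2.34 and 2.18 from ZT0 to ZT20. The lowest was at ZT0 and the highest at ZT8, the mean was 2.37 ± 0.24 (5.17-fold), and the adjusted p of the weighted mean was 8.46e-185. Kcna10, a Shaker-type pore gated also by cyclic nucleotides, stood at 1.73, 2.44, 1.68, 2.79, 1.90 and 1.75 in the authors' deposited tables. Its mean was 2.05 ± 0.46 (4.13-fold, adjusted p 6.45e-31), on a mean normalized count of 6.32, among the lowest of the members.

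Kcng4, a modulatory subunit that forms no channel alone and assembles with other pores, was raised evenly over the day. Its deposited values in the authors' tables were 1.10, 1.21, 1.23, 1.34, 1.10 and 1.24, a mean of 1.21 ± 0.09 (2.31-fold, adjusted p 6.33e-296). Kcnf1, a silent subunit of the same kind, went the other way. The authors' deposited tables gave it −1.22, −0.42, −0.53, −0.21, −1.04 and −1.18, and its mean of −0.77 ± 0.44 is 1.70-fold lower (adjusted p 9.86e-16). Per kb of transcript Kcng4 was at 196 normalized counts and Kcnf1 at 24.5.

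Kcnq1 and Kcnq5, of the KCNQ family whose pores carry slow, non-inactivating potassium currents, both rose. Kcnq1 was at 0.99, 1.87, 0.64, 0.67, 0.38 and 0.46 in the authors' deposited tables, with its highest value at ZT4. Its mean was 0.83 ± 0.55 (adjusted p 7.87e-09) on a mean normalized count of 9.56. The non-coding Kcnq1ot1, which overlaps 3.0% of the Kcnq1 exon bases on the opposite strand, had a mean of −0.01 ± 0.12 and did not pass. Kcnq5 was at 0.66, 0.36, 0.61, 0.57, 0.37 and 0.51 in the authors' deposited tables, a mean of 0.52 ± 0.12.

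Of the fast Shaw-type pores, Kcnc1 rose by a mean of 0.29 ± 0.12 and was called at all 6 ZT, and Kcnc4, the more abundant of the pair per kb (178 against 146 normalized counts), had a mean of 0.14 ± 0.16. The Kcnc4 mean rested on ZT4, where the authors' deposited table gave 0.44. Without that time its mean was 0.07 (adjusted p 0.0809), and limma on the 6 values gave an adjusted p of 0.107. Kcna7, a muscle Shaker-type pore at 268 normalized counts per kb, fell by a mean of 0.21 on the log2 scale and was called at 5 of 6 ZT. The 7 pores that did not pass were Kcna1, Kcna2, Kcna5, Kcna6, Kcnc2, Kcnd1 and Kcnh7, with means from −0.27 (Kcnh7) to 0.04 (Kcna5).

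Among the calcium- and sodium-activated potassium channels 2 of 8 rose and 1 fell, where 18.9% of all genes rose and 19.3% fell. The 2 that rose were small-conductance channels, which open on calcium alone and shape the after-hyperpolarization. Kcnn3, the form known from denervated and immature fibres, had values of 1.89, 2.11, 0.99, 1.02, 1.06 and 1.31 in the authors' deposited tables. It was higher at ZT0 and ZT4 than at the other times, with a mean of 1.40 ± 0.48 (2.63-fold, adjusted p 2.26e-75). Kcnn2 was at 0.44, 1.01, 1.29, 0.63, 0.51 and 0.68 in the authors' deposited tables, with a mean of 0.76 ± 0.33. The third family member, Kcnn1, had a mean of 0.00 ± 0.05 and did not pass. Kcnma1, the pore of the large-conductance BK channel, had a mean of −0.06 ± 0.06 with an adjusted p of 0.0378 that was lost without any of ZT4, ZT8, ZT12, ZT16 or ZT20 (0.0531 to 0.214) and in limma (0.126). Lrrc38, a gamma subunit that lets BK channels open at more negative voltage and is outside the naming rule, was at −0.60 ± 0.19 and called at all 6 ZT.

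Inward rectifiers and accessory subunits changed little. Of 6 inward-rectifier pores 2 rose and 1 fell, where 18.9% of all genes rose and 19.3% fell. The mean farthest from 0 was the −0.20 of Kcnj3, which did not pass. Kcnj11, the pore of the ATP-sensitive channel of muscle at 476 normalized counts per kb, rose by 0.11 ± 0.08. Abcc8, a sulfonylurea receptor outside the naming rule, rose by 1.00 ± 0.60 on a mean normalized count of 52.3. Whether it partners Kcnj11 in this muscle was not tested. Kcnj2, a classical resting-potential channel, had a mean of −0.10 ± 0.13 with an adjusted p of 0.0388, lost without ZT0, ZT8 or ZT20 (0.112 to 0.388) and in limma (0.148). Kcnj12, its close relative at 193 normalized counts per kb, was at −0.02 ± 0.07 and did not pass. Of the 5 accessory subunits 0 rose at the adjusted threshold, at an unadjusted p under 0.05, by Stouffer's sum or by limma. The beta subunit Kcnab1 fell, with a mean of −0.15 ± 0.15 (adjusted p 0.0142). It lay between −0.38 at ZT4 and 0.00 at ZT0 in the authors' deposited tables, and its call was lost without ZT4 (adjusted p 0.115) or ZT8 (0.0856) and in limma (0.0654). Of the 3 K2P leak channels 0 passed, also at an unadjusted p and in limma, and Stouffer's sum called 1 lower.

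Sodium channel auxiliary subunits rose while the muscle pore fell slightly. Of 4 beta subunits, which set the surface level and gating of the pore, 3 rose, with a median of 0.34 over the 4. Over all genes 18.9% rose. Scn3b was at 0.61, 1.33, 0.97, 1.65, 0.98 and 0.79 in the authors' deposited tables, a mean of 1.06 ± 0.38 (2.08-fold). Scn4b had its highest deposited value in the authors' tables at ZT4 (0.51) and its lowest at ZT12 (0.11), with a mean of 0.23 ± 0.14.

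The adult muscle sodium pore Scn4a, at 1001 normalized counts per kb, was at −0.10, −0.15, −0.23, −0.14, −0.18 and −0.14 in the authors' deposited tables. All 6 were called, and its mean of −0.16 ± 0.05 is 1.12-fold lower (adjusted p 4.08e-30). No other sodium pore passed: 0 of 5 rose at the adjusted threshold, where 18.9% of all genes did. At an unadjusted p under 0.05 0 rose, and limma and Stouffer's sum each called 1 higher.

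Among the voltage-gated calcium channel subunits of the rule, which leaves out Cacna1s, 5 of 17 rose and 4 fell. The shares over all genes were 18.9% and 19.3%. The pores and auxiliary subunits of the rule did not move together. Cacna1i, a T-type pore that opens at low voltage, had the largest change of all the members. The authors' deposited tables gave 3.45, 2.72, 3.56, 3.02, 3.31 and 3.61 from ZT0 to ZT20. Its mean of 3.28 ± 0.34 is 9.71-fold (adjusted p 1.70e-156), on a mean normalized count of 26.6, or 2.72 per kb. The other 5 pores of the rule did not pass, among them the T-type pores Cacna1g (−0.01 ± 0.04) and Cacna1h (0.10 ± 0.09), the latter called by Stouffer's sum with an adjusted p of 0.00224.

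The auxiliary subunits that accompany the voltage sensor of muscle are Cacna2d1, Cacnb1 and Cacng1. The first fell, and the means of the other two were 0.05 and 0.10. Cacna2d1, an extracellular subunit of the complex, was at −0.34, −0.16, −0.40, −0.49, −0.26 and −0.52 in the authors' deposited tables. Its mean was −0.36 ± 0.14 (1.29-fold lower, adjusted p of the weighted mean 6.98e-67). Cacng1, the membrane gamma subunit at 1764 normalized counts per kb, rose by 0.10 ± 0.05. Cacnb1, the cytoplasmic beta subunit, had a mean of 0.05 ± 0.08 with values from −0.06 at ZT12 to 0.16 at ZT0 in the authors' deposited tables. It lost its call without ZT0 (adjusted p 0.107) and in limma (0.233).

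Other members of the same subunit families went both ways, and Cacna2d2, Cacnb2 and Cacnb4 did not pass. Cacna2d4 rose by 0.95 ± 0.30 (1.94-fold), with values between 0.55 at ZT4 and 1.25 at ZT0 in the authors' deposited tables. Cacna2d3 had a mean of −0.39 ± 0.32 on a mean normalized count of 10.9, and its call was lost without ZT4 (adjusted p 0.0535). Cacnb3 rose by 0.50 ± 0.37, from 0.17 at ZT20 to 1.13 at ZT4 in the authors' deposited tables. Cacng7, of the gamma family whose members also act on glutamate receptors, was at −1.24, −0.80, −1.09, −1.06, −0.85 and −1.02 in the authors' deposited tables. With a mean of −1.01 ± 0.16 (2.02-fold lower, adjusted p 9.86e-153) it was the member with the largest decrease. Cacng6, at 801 normalized counts per kb, fell by a mean of 0.19 on the log2 scale and was called at all 6 ZT.

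Of the 7 CLC family members 3 fell, 4 did not pass and 0 rose, where 19.3% of all genes fell and 18.9% rose. None rose at an unadjusted p under 0.05 or in limma either, and Stouffer's sum called 1 higher. Clcn1, the chloride channel that sets the resting conductance of muscle at 786 normalized counts per kb, fell by a mean of 0.08 on the log2 scale and was called at 3 ZT. Clcn3 and Clcn4, both intracellular exchangers, changed more. Clcn3, of endosomes, was at −0.25, −0.34, −0.41, −0.41, −0.40 and −0.44 in the authors' deposited tables, a mean of −0.38 ± 0.07 (1.30-fold lower). Clcn4, which pairs with Clcn3, was at −0.25, −0.30, −0.22, −0.25, −0.21 and −0.32 in the authors' deposited tables, a mean of −0.26 ± 0.05. Both were called at all 6 ZT. Clcn2, Clcn5, Clcn6 and Clcn7 had means between −0.04 and 0.09.

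The largest changes were not in the most abundant subunits. The 8 members with a mean size of at least 1 had between 2.72 and 196 normalized counts per kb. Among the abundant subunits of the muscle membrane, Cacng1, Scn4a, Scn4b, Cacng6, Clcn1 and Cacna2d1 had means between −0.36 and 0.23. That range does not cover every abundant member. The 40 members that did not pass had a median mean normalized count of 12.0, against 240 for the 21 that rose and 639 for the 14 that fell. Small changes of scarce members may not have been detectable.

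**Figure D2:**
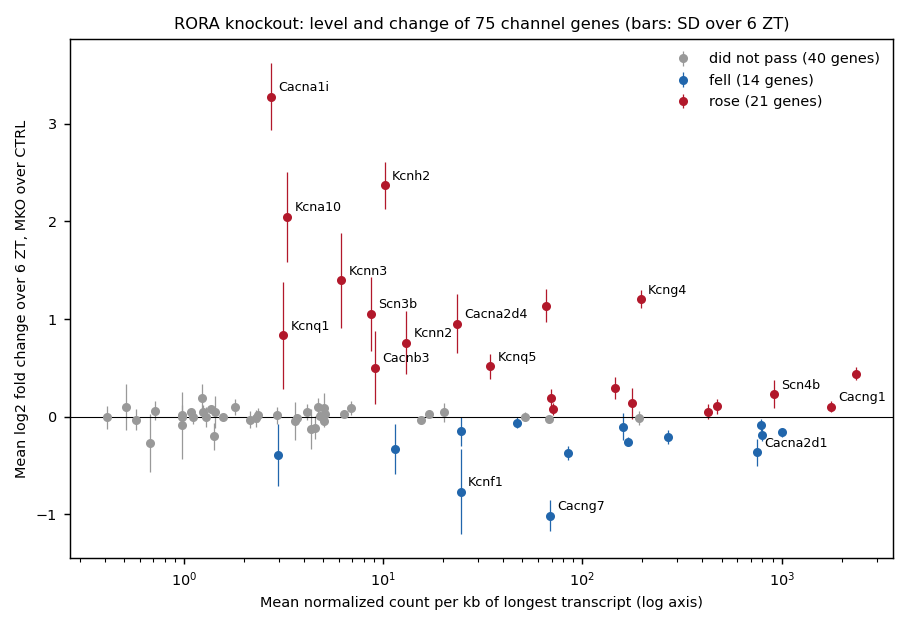
Mean log2 fold change over the 6 ZT, MKO over CTRL (vertical axis, bars are the SD over ZT), against mean normalized count per kb of the longest annotated transcript (horizontal axis, log scale) for the 75 members in the RORA set. The largest increases, Cacna1i (3.28), Kcnh2 (2.37) and Kcna10 (2.05), are at 2.72, 10.2 and 3.30 normalized counts per kb. The median of the 75 members is 6.36 per kb. The abundant Cacng1 has a mean log2 fold change of 0.10.

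For 11 of 75 members (14.7%) the RORA effect itself differed between ZT by Cochran's Q with an adjusted p under 0.05, against 11.0% of all genes. The shapes were not alike. Scn4b was highest at ZT4, Kcnn3 at ZT0 and ZT4, Kcnn2 at ZT8 and Scn3b at ZT12, each with its sign kept at all 6 ZT. Among the members that fell, Cacna2d1 was lowest at ZT20 and ZT12, Cacng6 at ZT8, Clcn1 at ZT4 and Kcnf1 at ZT0 and ZT20. Cacnb1 alone of the 11 changed sign. Marker lists of other cells also varied between times: the median of the 10 Schwann cell markers went from −0.25 at ZT4 to 0.62 at ZT20, and that of the 8 white adipocyte markers from −0.50 at ZT0 to 0.41 at ZT20. Their part in the differences between ZT was not tested. Each ZT used other mice, so a time difference and a difference between sets of mice cannot be told apart.

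**Figure D3:**
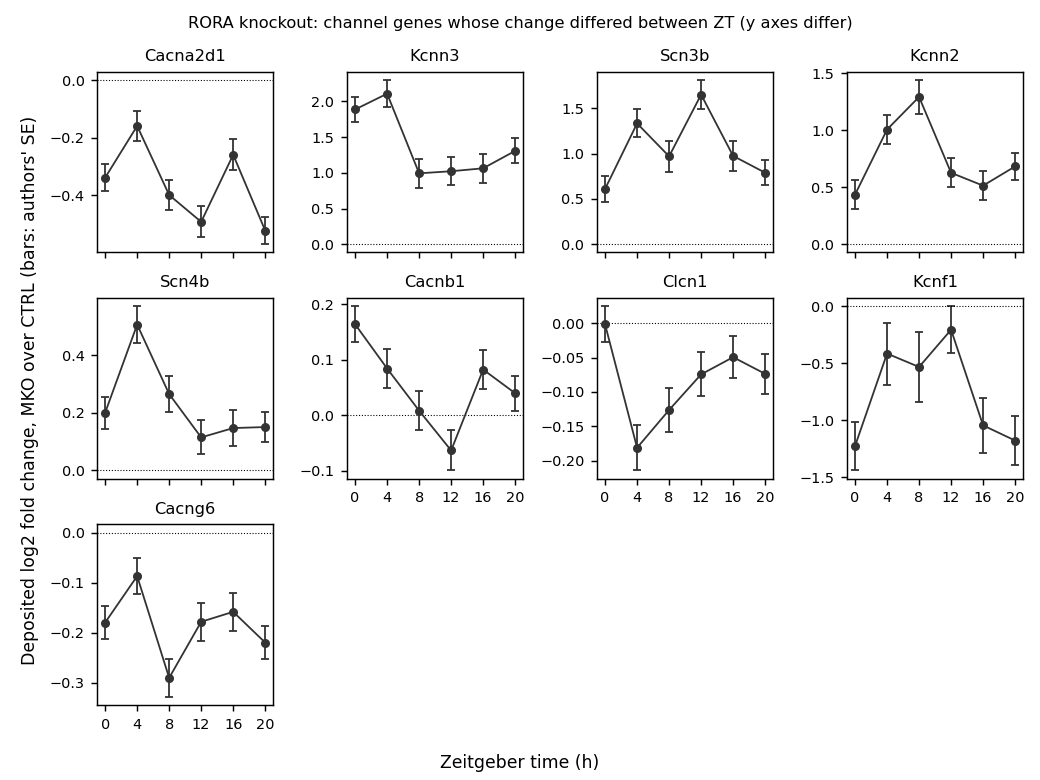
Deposited log2 fold change, MKO over CTRL (vertical axes, which differ between panels; bars are the authors' SE), by zeitgeber time in hours for 9 of the 11 members whose RORA effect differed between ZT. Kcnn3 is higher at ZT0 and ZT4 than at the other times, and Kcnn2 is highest at ZT8.

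Genes that work beside these channels were read from lists outside the naming rule. Of 11 measured sodium-potassium pump subunits and regulators 2 rose and 3 fell in the RORA set. Atp1b4, a muscle protein of the pump beta family, rose by 1.13 ± 0.28, and Atp1b2 was at 0.13 ± 0.08. Of 15 channel partners 5 rose and 4 fell: beside Abcc8, Dpp6, which modifies A-type potassium channels, was at 0.64 ± 0.25, and Ank2, an ankyrin that anchors channels and pumps, at 0.60 ± 0.06. Of 41 other ion channels 8 rose and 11 fell. The largest was Itpr1, a calcium release channel of the endoplasmic reticulum, at −1.06 ± 0.12. The acetylcholine receptor subunit Chrnd rose by 0.45 ± 0.31, and Chrnb1 fell by a mean of 0.24 on the log2 scale. The medians of the 3 lists were −0.02, 0.04 and 0.00, beside 0.00 over all genes. By the same threshold 18.9% of all genes rose and 19.3% fell.

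Markers of other cell types were read by the same mean over ZT, where 18.9% of all genes rose and 19.3% fell. In the RORA set 9 of 10 endothelial markers rose, with a median of 0.16, and the Kir channel Kcnj8, known from vessel walls, had a mean of 0.08 ± 0.06 with an adjusted p of 0.0375, lost without ZT12, ZT16 or ZT20 (0.0720 to 0.212) and in limma (0.0555). Of 10 smooth muscle and pericyte markers 3 rose and 1 fell, and of 10 Schwann cell markers 1 rose. Of 8 fibroblast markers 3 fell, of 9 macrophage and leukocyte markers 1 rose, of 8 adipocyte markers 1 rose, and of 4 measured red blood cell genes 1 rose. Single times differed from the mean. At ZT20 the authors' adjusted p called 10 of 10 Schwann cell and 7 of 8 adipocyte markers (32.2% of all genes). At ZT16 it called 1 and 0 of them (20.7% of all genes). Of the 12 muscle fibre markers 3 rose and 4 fell, with a median of 0.00. The part of other cells in the channel changes was not tested.

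In the PER2 set 22 of 61 channel members passed in the mean over ZT, 11 with a positive and 11 with a negative deposited mean. That is 36.1% of members against 21.6% of all genes, using signed z values summed by Stouffer's method and adjusted by Benjamini-Hochberg over all genes. For each sign the share was 18.0%, against 10.9% (positive) and 10.6% (negative) of all genes. Only part of this was visible at single times: by the authors' adjusted p, ZT0 had 4 members called (2.70% of all genes were), ZT4 12 (12.2%), ZT8 1 (1.78%), ZT12 2 (3.34%), ZT16 1 (0.811%) and ZT20 2 (1.52%). As shares of the 61 members these are 6.56%, 19.7%, 1.64%, 3.28%, 1.64% and 3.28%. No member was called at all 6 ZT (0.340% of all genes were), and 0 had an unadjusted p under 0.05 at all 6. No member's PER2 effect differed between ZT by Cochran's Q (0.108% of all genes did), with 10 of 61 at an unadjusted p under 0.05 and 0 by Q on the z values.

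The count was lower without ZT4. Leaving it out gave 15 members (24.6%, against 14.5% of all genes), leaving out both ZT4 and ZT12 gave 8 (13.1% against 10.6%), and limma on the 6 values gave 8 (13.1% against 8.43%). At ZT4 and ZT12 the deposited log2 fold change moved with transcript length across genes (Spearman's rho 0.52 and 0.44, a description over genes that share libraries), and length and GC content took up 30.5% and 29.1% of its variance. At the same times the red blood cell genes had medians of −1.35 and −1.01. With the trend on length and GC content removed, 20 members passed in the mean (19.2% of all genes did), and 5 in place of 12 were called at ZT4 (5.88% of all genes were). The part of these features in the PER2 values was not tested further.

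**Figure D4:**
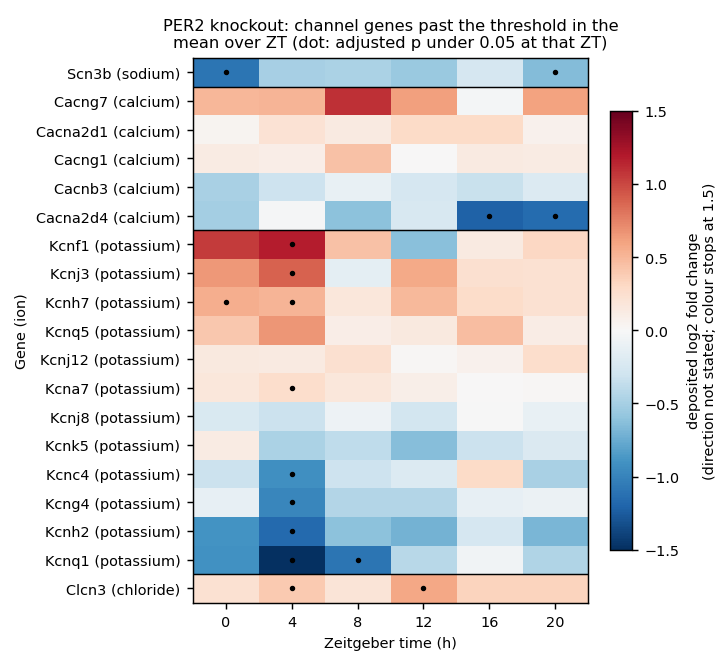
Deposited log2 fold change in the PER2 set, with its direction between genotypes not stated, for 19 of the 22 channel members that passed in the mean over ZT, by gene (rows, grouped by ion) and zeitgeber time in hours (columns). Colour stops at 1.5, and a dot marks an authors' adjusted p under 0.05; 6 of the 9 negative and 5 of the 10 positive members shown have at least 1 dot.

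Voltage-gated potassium pores, again the largest group, gave the most calls in the PER2 set, with 5 of 14 positive and 5 negative. Of all genes 10.9% were positive and 10.6% negative. Kcnq1 had values of −0.91, −1.76, −1.09, −0.41, −0.05 and −0.45 in the authors' deposited tables, a mean of −0.78 ± 0.61 (adjusted p 3.77e-07) at 0.699 CPM, the deposited level scaled to library size. Its call was lost in limma (adjusted p 0.0503). Kcnh2 was at −0.90, −1.17, −0.61, −0.71, −0.26 and −0.69 in the authors' deposited tables, all 6 negative, with a mean of −0.72 ± 0.30 (adjusted p 2.36e-05) at 1.32 CPM. Kcng4 had a mean of −0.37 ± 0.34 that leaned on its ZT4 value of −0.98 in the authors' deposited table. It was at −0.19 without ZT4 and ZT12 (adjusted p 0.174), and limma gave 0.0910.

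On the positive side of the potassium pores, Kcnf1 had a deposited mean of 0.42 ± 0.66. It ranged from −0.63 at ZT12 to 1.18 at ZT4 in the authors' deposited tables, so the spread over ZT was wider than the mean, and it did not pass with ZT0 left out (adjusted p 0.184), with ZT4 left out (0.285) or in limma (0.266). Kcnh7, of the same family as Kcnh2, was at 0.55, 0.52, 0.17, 0.49, 0.28 and 0.23 in the authors' deposited tables, a mean of 0.37 ± 0.16. The exons of Kcnh7 overlap those of Gca on the opposite strand over 4.6% of its exon bases. Gca had a PER2 mean of 0.67 ± 0.25 (adjusted p 3.88e-14), and its part in the Kcnh7 value was not tested. Kcnq5 was at 0.31 ± 0.23, lost without ZT4 (adjusted p 0.126) and in limma (0.0535). Kcna7 was at 0.12 ± 0.10, lost without ZT4 (0.0818) and in limma (0.145). Kcnc4 was at −0.32 ± 0.39 and lost without ZT4 (0.169).

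Of the other potassium channels in the PER2 set, the inward rectifiers Kcnj3 (0.41 ± 0.37) and Kcnj12 (0.14 ± 0.10) were positive and Kcnj8 (−0.17 ± 0.12) negative, and the leak channel Kcnk5 was negative (−0.32 ± 0.26). A non-coding gene of the annotation covers 31.1% of the Kcnj3 exon bases on the opposite strand. Kcnj3 lost its call without ZT4 (adjusted p 0.0933) and in limma (0.0826), and Kcnk5 without ZT12 (0.0538) and in limma (0.0682). Kcnj12 lost its call without ZT8 (adjusted p 0.0823) or ZT20 (0.107), and Kcnj8 with the trend removed (0.0991). Both also lost it in limma, where 0 of the 6 inward rectifiers passed. None of the 6 calcium- and sodium-activated channels and none of the 3 voltage-gated accessory subunits passed by Stouffer's sum, the inverse-variance mean or limma, and at an unadjusted p under 0.05 these counts were 1 and 0. By Stouffer's sum 21.6% of all genes passed. Kcnn2, which rose in the RORA set, had a PER2 mean of −0.01 ± 0.34.

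Of the 4 sodium channel beta subunits 2 were negative and 0 positive in the PER2 set. Over all genes 10.6% were negative and 10.9% positive. At an unadjusted p under 0.05, by the inverse-variance mean and in limma 0 were positive, and limma called 1 negative. Scn3b was at −1.10, −0.50, −0.47, −0.55, −0.25 and −0.65 in the authors' deposited tables, a mean of −0.59 ± 0.28 (adjusted p 3.09e-11) at 3.26 CPM. Of the 5 sodium pores 0 passed, also at an unadjusted p and by the other tests. Scn4a had a mean of 0.03 ± 0.14.

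Of the 14 calcium channel subunits 3 were positive and 2 negative in the PER2 set. The shares over all genes were 10.9% and 10.6%. Cacna2d4 was at −0.51, −0.01, −0.62, −0.24, −1.22 and −1.16 in the authors' deposited tables, called at ZT16 and ZT20, with a mean of −0.63 ± 0.48 (adjusted p 2.93e-05). Cacng7 was positive at 5 of 6 ZT, from −0.03 at ZT16 to 1.10 at ZT8 in the authors' deposited tables, with a mean of 0.55 ± 0.36. Its call was lost without ZT8 (adjusted p 0.0697) and by the inverse-variance mean (0.216). Cacnb3 was at −0.28 ± 0.13, lost without ZT0 (adjusted p 0.0685). Cacng1 was at 0.15 ± 0.15, lost without ZT8 (0.280) and in limma (0.141). Cacna2d1 was at 0.17 ± 0.11, lost with the trend removed (0.369) and in limma (0.0642). None of the 5 calcium pores passed by Stouffer's sum, at an unadjusted p, in limma or by the inverse-variance mean. Cacna1i had values of 0.52, 0.31, −0.18, −0.90, −0.08 and −0.08 in the authors' deposited tables, a mean of −0.07 ± 0.49.

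Clcn3 was the CLC member that passed in the PER2 set, 1 of 6, where 21.6% of all genes passed. Clcn3 was at 0.23, 0.39, 0.19, 0.58, 0.33 and 0.34 in the authors' deposited tables. Its mean was 0.34 ± 0.14 (adjusted p 6.88e-13), and 0.25 with the trend removed (4.79e-07). Clcn4 is listed in the PER2 tables under an older name, Clcn4-2, which the rule did not take, with a mean of 0.28 ± 0.17 (adjusted p 1.22e-05). Clcn1 was at 0.06 ± 0.11 and did not pass.

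Of 10 pump subunits and regulators in the PER2 set 0 were positive (also 0 at an unadjusted p and by the other tests) and 2 were negative, Atp1b4 at −0.39 ± 0.23 among them. Of 15 channel partners 4 were positive and 1, Abcc8 (−0.80 ± 0.45), was negative. Dpp10, a relative of Dpp6, had a deposited mean of 4.94 ± 1.08 and was called at all 6 ZT, at a mean log2 CPM of −1.38. Of 39 other channels 8 were positive and 8 negative, with Itpr1 at 0.69 ± 0.24 and the acetylcholine receptor subunits Chrna1, Chrnb1, Chrnd and Chrne between −0.32 and −0.16. The list medians were −0.10, 0.08 and −0.05, beside −0.02 over all genes. By the same threshold 10.9% of all genes were positive and 10.6% negative. Of the markers, 5 of 5 red blood cell genes, 4 of 10 endothelial, 1 of 9 Schwann cell, 1 of 8 adipocyte and 1 of 12 muscle fibre markers were negative. None of these lists had a positive member, and no smooth muscle, fibroblast, macrophage or neuron marker passed in either direction. At an unadjusted p under 0.05 there was 1 negative smooth muscle marker and 1 positive macrophage marker, and limma called 1 marker of all these lists, a negative Schwann cell marker.

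The members of the sets were placed side by side. The 2 knockouts have their own control mice. Of the 61 shared members 18 passed in both sets, which is 56.2% of the 32 that passed in RORA and 81.8% of the 22 that passed in PER2. Over all shared genes these shares were 33.0% and 64.5%. Of the 18, 16 had opposite deposited signs (88.9%), and over all 11329 shared genes 1391 of 1628 did (85.4%), so the channel members were close to the rest. Kcnh2 stood at 2.37 in RORA and −0.72 in PER2, Scn3b at 1.06 and −0.59, Cacna2d4 at 0.95 and −0.63, and Kcnq1 at 0.83 and −0.78. On the other side Cacng7 stood at −1.01 and 0.55, Kcnf1 at −0.77 and 0.42, and Clcn3 at −0.38 and 0.34. The 2 members with the same sign in both were Kcnq5 (0.52 and 0.31) and Cacng1 (0.10 and 0.15). Some members passed in 1 set alone: Cacna1i and Kcnn2 with RORA means of 3.28 and 0.76 had PER2 means of −0.07 and −0.01. The RORA and PER2 means had Pearson's r of −0.56 and Spearman's rho of −0.59 across the 61 members and −0.40 and −0.41 across all shared genes. These are descriptions across genes, which are not independent replicates. Because the PER2 direction is not stated, opposite deposited signs do not say whether the knockouts moved these genes apart or together, and the difference between knockouts was not tested.

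**Figure D5:**
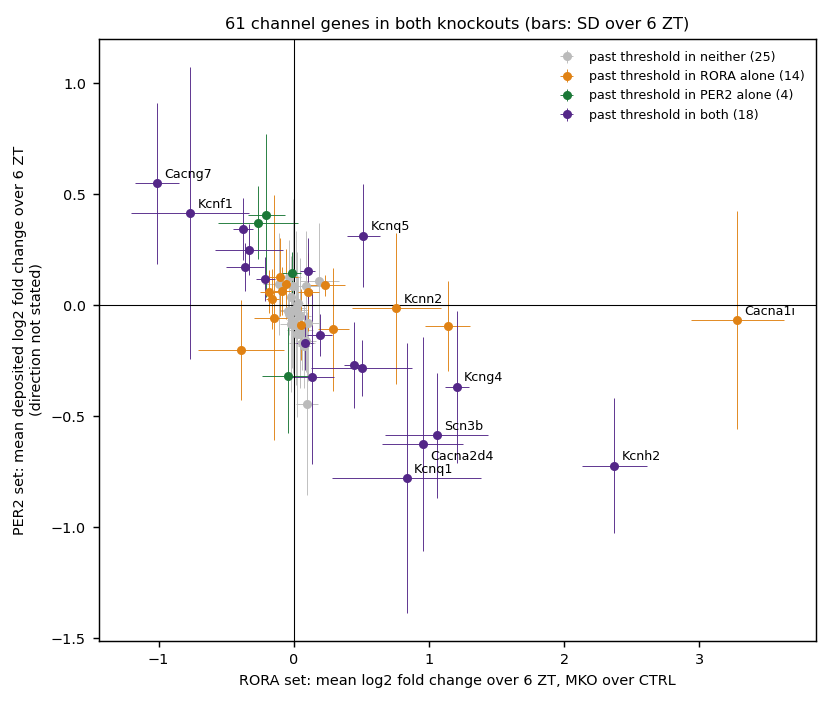
Mean deposited log2 fold change over 6 ZT of the 61 shared channel members in the RORA set (horizontal axis, MKO over CTRL) and in the PER2 set (vertical axis, direction not stated), with bars for the SD over ZT and colour for the set in which a member passed. Most of the 18 members that passed in both lie in the upper left and lower right, and Cacna1i lies far to the right near 0 on the PER2 axis.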

How the data were processed

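Total RNA from mouse muscle was sequenced as poly(A)-selected stranded libraries, per the labels' protocols. Per the submitters' processing notes, the tools were STAR, Trimmomatic, bcl2fastq 2.20.0.422, DESeq2, MultiQC and R 4.1, and the builds GRCm39 and mm9. The counting tool, whether it used strand, its annotation and the build behind each table are not given in what was used here. The authors deposited 12 tables of MKO against CTRL, one for each knockout and ZT.

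Per the file headers, the RORA tables hold the mean normalized count (a signal level, the same in all 6 tables), the log2 fold change with its SE, and the p-value and adjusted p-value. Their Wald-type ratio of log2 fold change to SE was lower than the z value of the deposited p (median ratio 0.862), so sizes may be understated. Per the labels, the authors kept genes with at least 10 reads in 3 samples. The deposited PER2 tables hold log2 fold change, log2 CPM, a likelihood-ratio statistic (a score with no fixed range), p-value and FDR, per the file headers. They give no SE, which was derived from the log2 fold change, divided without its sign by the square root of that statistic, or from 200 genes of like level where it was under 0.01.

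Effects over ZT were combined on the whole table and adjusted by Benjamini-Hochberg over all genes: an inverse-variance mean for RORA, Stouffer's sum for PER2, and Cochran's Q (5 degrees of freedom) for a difference between ZT. The design assumed no counts per library, and count models were not run. Alternatives were the other combination, limma 3.58.1 on the 6 values per gene, each ZT left out, a level minimum (50 normalized counts or 1 CPM), a threshold of 0.01 and, for PER2, removal of a spline trend (5 knots) on transcript length and GC content from GENCODE M21, which matched 95.2% of PER2 genes. Scripts were tested on simulated data. Promoter sequences are from RefSeq (GRCm38.p6).

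The members and lists (cell type markers of muscle fibre, Schwann cell, neuron, smooth muscle and pericyte, endothelium, fibroblast, macrophage, adipocyte and red blood cell; pump; channel partners; other channels) were chosen with earlier results of these data known. Named members were a set of muscle channel subunits, the 10 highest and 10 lowest means with 1 sign at all 6 ZT, those called at all 6 ZT, the 5 with the smallest p of Q, and the 2 with the highest level per kb for each ion. Other members, and genes of the lists, were named after their values were seen. Scn2a1 of the PER2 tables was matched to Scn2a as a RefSeq synonym. Some further genes of the patterns and lists count in the totals but are not reported here.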

Additional observations from a re-analysis of the deposited data

Results flagged for a closer look

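For 9 of the 11 members whose RORA effect differed between ZT by Cochran's Q, the p-values, adjusted by Benjamini-Hochberg over all genes, are given here. The adjusted p was 3.25e-05 for Cacna2d1, 0.000200 for Kcnn3 and 0.000431 for Scn3b. It was 0.000769 for Kcnn2, 0.00120 for Scn4b and 0.00240 for Cacnb1. Clcn1 (0.0103), Kcnf1 (0.0204) and Cacng6 (0.0478) were nearest the threshold. Of the PER2 members 0 of 61 had an effect that differed between ZT, with 10 at an unadjusted p under 0.05 and 0 by Q on the z values.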

How the results depend on the processing

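The 35 RORA members that passed in the mean over ZT became 44 by Stouffer's sum, 32 in limma, 27 with a minimum of 50 normalized counts, and 31 to 33 with a ZT left out. With that minimum 22 in place of 34 were called at ZT8. Cochran's Q on z values called 20 in place of 11. The 22 PER2 members became 8 in limma, 8 without ZT4 and ZT12, 20 with the trend on length and GC content removed, and 15 to 22 with a ZT left out. At a threshold of 0.01 the PER2 calls were 4 at ZT4, 1 each at ZT0 and ZT12, and 0 each at ZT8, ZT16 and ZT20. With a minimum of 1 CPM 0 were called at ZT8, and with the trend removed 5 at ZT4 and 1 at ZT12. Fewer genes were tested with a level minimum and fewer ZT entered when some were left out; for the other settings the cause was not tested. Over the named members, 507 comparisons with an alternative kept their direction and side of the threshold, 59 lost the call, 4 gained it and 0 reversed. Named members that had not passed could not lose a call. In the PER2 set 11 lost it in limma (18 stayed the same) and 10 without ZT4 and ZT12 (19 stayed the same). In the RORA set 4 lost it in limma (31 stayed the same). No paired analysis was possible because the deposited tables hold comparisons with no value per library. For the same reason leaving out single mice was not run. Depth is unknown, and 20 of 75 RORA members had a mean normalized count under 10.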
